A study of Mus musculus with 17 samples.

Results

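The uninjured left ventricle was described from 6 of the 17 arrays of the series, those whose titles name sham-operated myocardium at 4 weeks. Each array held RNA of 1 female C57/BL6 mouse (C57BL/6N in the methods), of 8 to 10 weeks by the labels, whose chest and pericardium had been opened without tying the coronary artery. After 4 weeks the left ventricular free wall, its posterior and inferior parts, was taken and its RNA was hybridised to Illumina MouseWG-6 v.2 BeadChips, where beads coated with a probe shine more brightly the more labelled RNA they bind. No comparison with mice whose artery was tied is made, and the mice are numbered 1 to 6 as in the labels.

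The wall of the left ventricle is built mainly of cardiomyocytes, with endothelial cells, fibroblasts, mural cells and macrophages between them. Cardiomyocytes shorten when myosin of the thick filament pulls on actin, under control of troponin and tropomyosin and of calcium that is released and taken up again by the sarcoplasmic reticulum. They burn mostly fatty acids in densely packed mitochondria. Many of the proteins involved belong to small families whose members differ between heart, skeletal muscle and other tissues, and between atrium and ventricle, so the isoform that is read describes the tissue.

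Before any gene was ranked, the arrays were compared with each other. Their median signals were between 105 and 115, their brightest probes between 24853 and 31960, and 14108 to 14955 of 45281 probes had a detection p under 0.01, the threshold used throughout. A detection p is the share of negative control probes that are brighter than the probe. Over the probes detected in all 6 arrays, Pearson correlations of log2 values between pairs of mice lay between 0.975 and 0.989. All pairs share tissue and platform, and the correlations are given as a description. Mouse 1 was hybridised on chip 1, mice 2, 3 and 4 on chip 2, and mice 5 and 6 on chip 3. Mice 5 and 6 stood apart in genes typical of the atrium, and mouse 2 stood apart in a set of genes that were lowest in it. For the genes that rest most on these mice, the spread is given with and without them.

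Of 19057 genes with a probe that carries 1 gene symbol, 7780 (40.8%) had a probe detected in all 6 sham arrays. For 9293 genes (48.8%) no probe was detected in any array. The remaining genes were detected in 1 to 5 arrays, among them 717 in 1 array and 349 in 5. At the level of probes, 12613 of 45281 (27.9%) were detected in all 6 arrays and 28309 (62.5%) in none. Of the genes called detected, 6816 had a detection p of 0 in every array, and the clearest probe of 258 genes had its highest p between 0.005 and 0.01. Just outside the threshold, the highest p of the clearest probe lay between 0.01 and 0.02 for 222 genes. Where every probe of a gene had to be detected, the count fell to 4292. Without mice 5 and 6 the counts were 7900 detected and 9481 not detected. In whole-tissue RNA, a low signal from fewer cells of a type cannot be told apart from less RNA per cell.

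**Figure D1:**
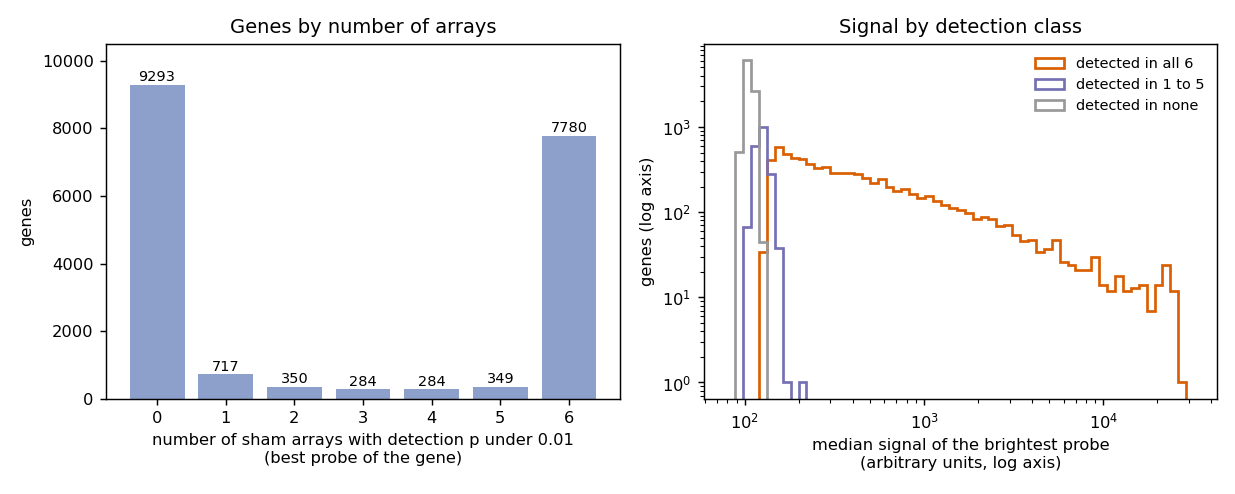
Left, number of genes (bars) by the number of sham arrays in which their best probe had a detection p under 0.01. Right, number of genes (log axis) by the median signal of their brightest probe (arbitrary units, log axis), drawn for 3 classes of detection. Most genes were detected in all 6 arrays (7780) or in none (9293), and only the genes detected in all arrays spread to signals well above background.

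The median signal of the 7780 detected genes ran from 129.5 to 26878, with a median of 357. Brightness fell off steeply along this range. A signal of at least 200 was reached by 5833 detected genes, at least 1000 by 1671, at least 5000 by 319, at least 10000 by 132 and at least 20000 by 45. Per array, the 10 brightest probes carried 2.09 to 2.30% of the signal above the median of undetected probes, the 100 brightest 17.5 to 18.9%, and the 1000 brightest 59.9 to 62.7%. The signal of a probe depends on its own sequence as well as on its transcript, so the ranks that follow order brightness and not the abundance of transcripts.

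The brightest genes were those of the respiratory chain, the ribosome, the sarcomere and fatty acid use. Of the 100 genes with the highest median signal, 39 encode nuclear subunits of the respiratory chain or ATP synthase, 14 ribosomal proteins of the cytosol, 9 proteins of the sarcomere or Z-disc, 5 proteins of fatty acid uptake or oxidation, and 3 globins. A further 3 were transcribed from mitochondrial DNA, 3 belonged to glycolysis and 3 to energy transfer and oxygen storage. Of the rest, 2 were on the citrate cycle list (Idh3g and the aminotransferase Got2) and 2 served calcium handling. The other 17 were in none of these classes. For comparison, the nuclear respiratory genes made up 0.964% of all detected genes and the ribosomal proteins 0.694%. These classes rest on gene symbols and lists, and no test of enrichment was run.

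First in rank was Cox7a1, the heart and muscle form of a small subunit of cytochrome c oxidase. Its signal was 27316, 27189, 26567, 24562, 24853 and 28091 in mice 1 to 6. Hspb6, a small heat shock protein of muscle, followed with 26453, 26642, 25309, 25905, 24389 and 23455. Rplp1, a protein of the ribosomal stalk, gave 25599, 23233, 29576, 25544, 23850 and 25885. Fth1, the heavy chain of the iron store ferritin, gave 22751, 25786, 25496, 23169, 24198 and 25227. The ranges of these 4 genes overlapped, and of the top 10 genes Cox7a1 was the only member that stayed within the top 10 in every mouse, so their order was not resolved.

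The nuclear-encoded mitochondrial genes of the top 30 covered the proton-pumping complexes of the respiratory chain and ATP synthase, which uses their gradient. Complex I was represented by Ndufs6, Ndufa13, Ndufb8 and Ndufa4 (counted here with complex I by its symbol), with median signals from 22549 to 23726. Uqcr10 (23304) and Uqcrh (22723) belong to complex III, and Cox6b1 (24654) and Cox5b (23224) to cytochrome c oxidase. ATP synthase appeared with Atp5j2 (24359), Atp5b (23610), Atp5o (22768) and Atp5l (22745). Cox6b1 varied little between mice, from 23421 to 25841, with an SD of 0.037 on the log2 scale. Over all 75 detected genes of this class the median SD was 0.095, against 0.19 over all detected genes. It was also low for energy transfer and oxygen storage (0.109), ribosomal proteins (0.126), glycolysis (0.128) and the sarcomere (0.135), but not for globins (0.367). The respiratory class was also brighter, with a median signal of 13190 against 357 over all detected genes. The part of brightness in its SD was not tested. Of 81 named genes of the class, 75 were detected in all arrays, or 92.6% against 40.8% of all genes.

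Among transcripts of mitochondrial DNA, 7 of 8 with a named probe were detected in all arrays. ND4 gave 22589, 23637, 22781, 19674, 22646 and 20639 and CYTB, the only complex III subunit in this genome, gave 23199, 23603, 21418, 19893, 19998 and 21728. The probes of ND5 and ND6 were dim, with median signals of 199 and 116, and ND6 was not detected in any array.

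Sarcomere genes in the top 30 were Actn2, Csrp3, Tnnc1 and Myl2, which is described with its family. Actn2, the alpha-actinin that anchors actin in the Z-disc, gave 24521, 25694, 26276, 23052, 21742 and 20743. Tnnc1, the calcium sensor of the thin filament, gave 26578, 25027, 24009, 22916, 21820 and 22902. Csrp3, a LIM protein of the Z-disc, gave 26454, 20966, 24479, 23988, 23020 and 22274. All values of the 3 genes lay above 20000, and a different mouse was the lowest in each of them.

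Other members of the top 30 serve fuel, energy transfer and calcium. Lpl, the lipase that frees fatty acids from lipoproteins at the vessel wall, gave 25098, 24134, 25078, 24854, 22604 and 24095. Fabp3, the fatty-acid-binding protein of heart, gave 24663, 25042, 21863, 22304, 19742 and 23134, and Acadm, the medium-chain acyl-CoA dehydrogenase, gave 20611, 22030, 24057, 21557, 21950 and 19406. Ckmt2, the creatine kinase of muscle mitochondria, gave 24545, 26374, 26863, 22943, 23535 and 23105. Atp2a2, the calcium pump of the cardiac sarcoplasmic reticulum, gave 22343, 21643, 21998, 21281, 19835 and 21780. Beside Rplp1, the ribosomal genes were Rps29 (24078), Rps2 (23827) and Rpl41 (22884). Ribosomal proteins have many near-identical processed copies in the genome, so their probes may read more than the named gene.

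**Figure D2:**
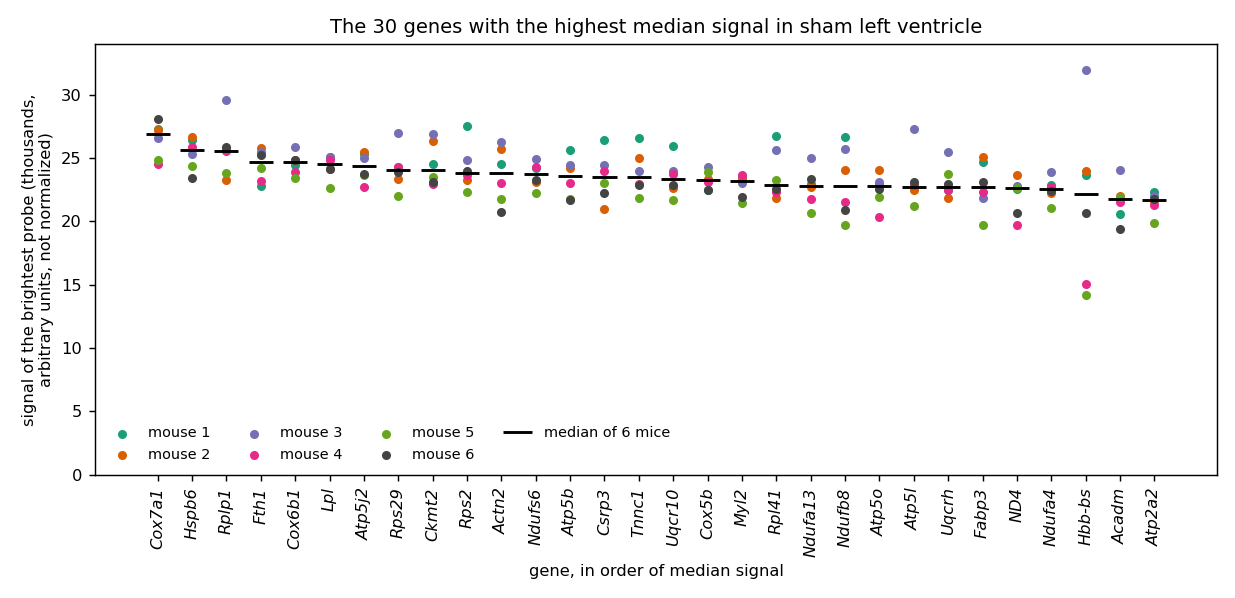
Signal of the brightest probe (in units of 1000, not normalized) of the 30 genes with the highest median signal, with 1 point per sham mouse and a bar at the median of the 6 mice. The medians fall only from 26878 for Cox7a1 to 21711 for Atp2a2, the points of neighbouring genes overlap, and Hbb-bs has the widest spread, from 14164 to 31960.

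The top of the ranking was flat. The gene in rank 30 had a median signal of 21711 and the gene in rank 31 one of 21683, and the medians on either side of rank 50 were 19422 and 19339. Of the 30 genes, 16 were among the top 30 in every mouse, and of the top 50 genes 42 were among the top 50 in every mouse. The lowest rank that a top 30 gene took in any mouse was 84, for Hbb-bs. Unnamed probes were also frequent at the top. They made up 13 of the 50 and 23 of the 100 brightest probes, and were left out of the ranking of genes.

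The promoters of genes that carry these readings are shown to give the sequence around the annotated start of the transcripts. Each window is from the RefSeq annotation of GRCm38.p6 and holds 250 bases before and 50 after the annotated start, written along the gene's strand. Capitals mark matches to TATAAA, to CACGTG (the E-box bound by the clock factors), to AAGGTCA (a half-site of nuclear receptors such as the oestrogen-related receptors) on either strand, and to the CArG box bound by serum response factor. The windows are those of the brightest gene, of the leading actin and myosin heavy chain, of an atrial light chain that was read in mice 5 and 6, and of 2 clock genes that differed between mice.
Cox7a1 (chr7:30183921-30184220, plus strand): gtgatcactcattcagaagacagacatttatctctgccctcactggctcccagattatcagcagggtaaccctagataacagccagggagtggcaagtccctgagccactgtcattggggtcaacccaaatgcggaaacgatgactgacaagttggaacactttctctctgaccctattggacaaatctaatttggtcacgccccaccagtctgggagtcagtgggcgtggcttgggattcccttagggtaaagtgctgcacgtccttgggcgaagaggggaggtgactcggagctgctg
Actc1 (chr2:114052826-114053125, minus strand): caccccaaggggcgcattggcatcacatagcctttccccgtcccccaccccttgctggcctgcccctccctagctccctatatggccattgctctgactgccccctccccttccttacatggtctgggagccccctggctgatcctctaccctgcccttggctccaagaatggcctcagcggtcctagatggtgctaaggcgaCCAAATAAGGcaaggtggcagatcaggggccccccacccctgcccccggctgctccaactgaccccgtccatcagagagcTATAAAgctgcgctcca
Myh6 (chr14:54966558-54966857, minus strand): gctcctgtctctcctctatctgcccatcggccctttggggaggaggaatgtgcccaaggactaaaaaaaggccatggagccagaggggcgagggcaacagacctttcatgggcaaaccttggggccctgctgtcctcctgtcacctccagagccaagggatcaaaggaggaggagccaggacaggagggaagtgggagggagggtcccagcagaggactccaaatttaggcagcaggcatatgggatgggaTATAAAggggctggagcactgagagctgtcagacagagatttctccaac
Myl7 (chr11:5898733-5899032, minus strand): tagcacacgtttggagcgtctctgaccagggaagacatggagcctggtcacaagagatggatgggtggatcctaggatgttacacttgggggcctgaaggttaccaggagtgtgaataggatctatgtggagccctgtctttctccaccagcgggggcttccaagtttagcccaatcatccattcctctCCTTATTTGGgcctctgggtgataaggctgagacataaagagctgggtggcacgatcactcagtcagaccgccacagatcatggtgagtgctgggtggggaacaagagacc
Ciart (chr3:95882179-95882478, minus strand): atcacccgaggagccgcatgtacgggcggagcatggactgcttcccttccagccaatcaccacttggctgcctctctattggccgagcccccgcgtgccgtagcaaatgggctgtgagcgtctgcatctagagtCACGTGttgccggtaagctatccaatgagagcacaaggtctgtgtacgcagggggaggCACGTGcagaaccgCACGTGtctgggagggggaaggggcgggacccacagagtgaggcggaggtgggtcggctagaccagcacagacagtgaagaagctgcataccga
Per1 (chr11:69098699-69098998, plus strand): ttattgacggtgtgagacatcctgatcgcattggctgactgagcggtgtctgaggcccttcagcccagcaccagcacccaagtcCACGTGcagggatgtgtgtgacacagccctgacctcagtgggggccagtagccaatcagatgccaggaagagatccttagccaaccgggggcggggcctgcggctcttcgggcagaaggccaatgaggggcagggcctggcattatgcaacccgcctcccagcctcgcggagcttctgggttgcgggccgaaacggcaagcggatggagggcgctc
The window of Cox7a1 holds none of the 4 motifs. That of Actc1 holds a CArG box and a TATAAA, that of Myh6 a TATAAA, and that of Myl7 a CArG box. Ciart has 3 CACGTG matches, and Per1 has 1 in the window shown, the first of its 2 windows. Over all 32851 windows in the table, TATAAA was present in 13.6%, CACGTG in 7.15%, AAGGTCA in 4.72% and the CArG box in 1.63%. In the 106 windows of the 100 brightest genes (84 genes matched) these shares were 12.3%, 5.66%, 5.66% and 3.77%. In the windows of genes detected in all arrays TATAAA was present in 7.40%, and in those of genes detected in none in 16.6%. A match is a description of the letters only.

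Isoform families were read next. Of 32 families, 25 had several members detected in all 6 arrays, 6 had 1 such member and 1 had none. Among myosin heavy chains, the motors of the thick filament, Myh6 (the alpha form of adult mouse ventricle) gave 25019, 20817, 19818, 18609, 19938 and 19957. Myh7, the beta form of fetal and slow muscle, gave 173, 197, 181, 170, 187 and 179, close to the lower end of detected signals but detected in all mice. Both had more than 1 probe. The other probe of Myh6 had a median signal of 4805, and the other 2 probes of Myh7 were each detected in 1 array. Myh8, the perinatal form, gave a median of 759 from 1 of its 3 probes, and the non-muscle forms Myh9 and Myh10 gave 502 and 196. The fast skeletal forms Myh1 and Myh4 were not detected in any mouse.

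Of 12 myosin light chains, 9 were detected in all arrays. Myl2, the regulatory light chain of the ventricle, gave 23616, 23309, 23000, 23648, 21411 and 21913, and Myl3, the ventricular essential chain, gave 21689, 21581, 22327, 21177, 20641 and 20192. Myl3 was the steadier of them, with an SD of 0.039 on the log2 scale. Myl1, the essential chain of fast muscle, was read in all mice at 6707, 3870, 4151, 5909, 5391 and 4792 by its brightest probe, whereas another of its 3 probes was not detected in any mouse. Myl6 (2823) and Myl12b (1414) serve non-muscle and smooth muscle myosin. Myl6b and Myl10 were not detected, and the fast skeletal Mylpf was dim, at 168, 150, 153, 135, 148 and 154.

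Among actins, Actc1, the cardiac alpha form, gave 24007, 23150, 21193, 18643, 19659 and 21557. Acta1, the skeletal alpha form that is also made in the stressed heart, gave 3419, 1935, 4042, 5730, 4717 and 2468, with its highest value in mouse 4 and its lowest in mouse 2. Acta2 of smooth muscle had a median of 4735, and the cytoskeletal Actb one of 4192. Actg2, the enteric smooth muscle form, was not detected. The coding sequences of the alpha actins are very similar, and how far each probe tells them apart was not tested.

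The troponin complex was read by Tnnc1 (above), Tnni3, Tnnt1 and Tnni2. Of 8 listed troponin genes 7 had a named probe. Tnnt2, the troponin T of heart, had none, so its signal is not known here. Tnni3, the inhibitory subunit of heart, gave 2285, 2065, 2975, 2878, 2647 and 2985. Tnnt1, the slow skeletal troponin T, gave 1255, 1099, 1174, 1045, 1058 and 1071, and Tnni2 of fast muscle was dim at 182, 165, 186, 196, 193 and 234. Tnni1 (slow), Tnnt3 and Tnnc2 (fast) were not detected in any mouse. The 4 tropomyosins, which block the myosin sites on actin, were all detected. Tpm4 had a median of 2668, Tpm1 of 852, Tpm3 of 341 and Tpm2 of 234, which orders their probes and not their transcripts.

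Mybpc3, the cardiac myosin-binding protein C, gave 11770, 12639, 14061, 12092, 12576 and 11288. Mybpc2 of fast muscle was detected at 186 and Mybpc1 of slow muscle was not detected. In the Z-disc family, Actn1 (394), Actn4 (423), Flna (224) and Flnc (2845) were detected beside Actn2, and the fast-fibre Actn3 was detected in 1 array. Ttn, the giant spring of the sarcomere, had 12 probes. Its brightest gave 17028, 16792, 14729, 14273, 12966 and 14156, 7 were detected in all arrays, and 4 in none.

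**Figure D3:**
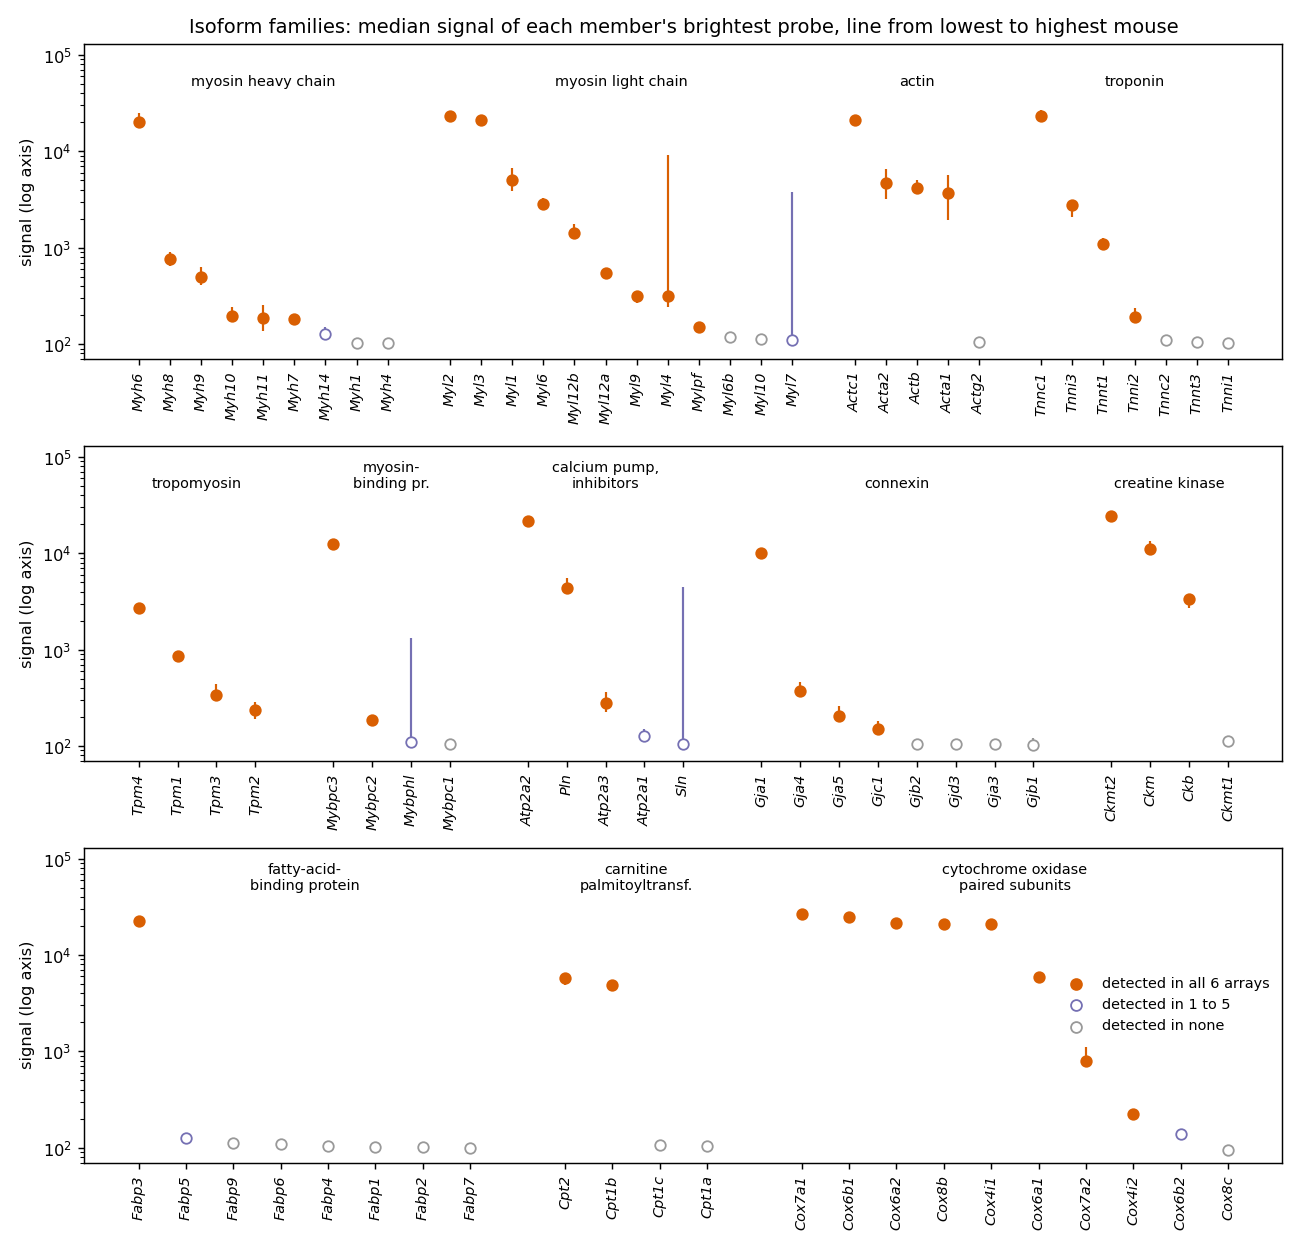
Median signal (arbitrary units, log axis) of the brightest probe of each named member of 12 isoform families, with a line from the lowest to the highest of the 6 mice. Filled points were detected in all 6 arrays and open points in fewer or none. In most families a few members stand far above the others, and the long lines of Myl4, Myl7, Mybphl and Sln reach signals above 1000.

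Of 14 calcium handling genes 11 were detected in all arrays. Beside Atp2a2 (above), Pln, the small protein that restrains this pump, gave 3794, 4203, 4430, 5324, 5545 and 4068. Atp2a1, the pump of fast muscle, was detected in 3 arrays with a median of 127, and Atp2a3 was detected in all at 279. Ryr2, the calcium release channel of heart, gave 3619, 4905, 4687, 4735, 4496 and 4387, while Ryr1 of skeletal muscle was not detected and Ryr3 was detected in 1 array. Casq2, the calcium store of the cardiac reticulum, gave 4525, 2957, 3841, 4111, 3709 and 3011, and its skeletal relative Casq1 was not detected. The 4 CaM kinase II genes, Camk2a, Camk2b, Camk2d and Camk2g, were detected with medians from 233 to 426. S100a1, a calcium-binding protein of muscle, gave 15284, 13936, 15987, 14823, 13419 and 13557, and Hrc, a histidine-rich protein of the reticulum, had a median of 10915. Trdn, which ties the release channel to the store, was not detected by its single probe.

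Connexins join cardiomyocytes electrically. Gja1, the connexin of working ventricular muscle, gave 10332, 9264, 9169, 9792, 10375 and 10355. Gja4, of endothelium, had a median of 375, Gja5, of atrium, conduction fibres and arteries, one of 204, and Gjc1 one of 149. Gja3, Gjb1, Gjb2 and Gjd3 were not detected.

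Ion channels differed in how many members were detected. Of 9 listed sodium channel genes 5 had a named probe, and none of these was detected (Scn1a, Scn3a, Scn7a, Scn8a and Scn10a). Of 7 calcium channel genes, Cacna1h was detected in all arrays at 254, 295, 201, 165, 190 and 301. Cacna1c, which encodes the L-type channel of heart, was detected in 5 arrays by the clearest of its 7 probes, with a median of 137. Cacna1g was detected in 4 arrays, and Cacna1a, Cacna1b, Cacna1d and Cacna1e in none. Of 13 potassium channels 8 were detected, led by Kcnk3 (1167), Kcnh2 (793), Kcnd2 (310), Kcnj8 (283) and Kcnj12 (223). Kcna4, Kcnd3 and Kcnq1 were not detected. Of 7 listed sodium pump subunits 3 had a named probe. These, the beta subunits Atp1b1 (5249), Atp1b3 (1816) and Atp1b2 (216), were detected in all mice, and no alpha subunit was read.

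Receptors of hormones and transmitters were read next. Agtr1a, the angiotensin II receptor that valsartan blocks, was detected in every mouse at 1295, 1243, 1212, 1174, 1337 and 1333, and its values lay close together. Agtr1b, Agtr2 and Mas1 were not detected. Ednrb, an endothelin receptor, had a median of 603. Chrm2, the muscarinic receptor of heart, gave 249, 291, 198, 233, 158 and 190, and was the only one of 7 adrenergic and muscarinic receptors with a named probe that was detected in all arrays. The list holds 14 such receptors, and those without a named probe were not read. Adra2c, Chrm1, Chrm3 and Chrm4 were not detected in any array. Npr2 (402) and Npr3 (177), receptors of natriuretic peptides, were detected, and Npr1 and the peptide gene Nppc were not.

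Enzymes and carriers of energy metabolism came next. Creatine kinase was read by Ckmt2 (above), Ckm (10596, 10389, 13493, 12823, 11533 and 10606) and Ckb (3324), and Ckmt1, the mitochondrial form of other tissues, was not detected. Mb, the oxygen store myoglobin, gave 22056, 23513, 22667, 20206, 19061 and 19784. Of 8 fatty-acid-binding proteins, Fabp3 (above) was the only member detected in all arrays. Fabp5 was detected in 3, and Fabp1, Fabp2, Fabp4, Fabp6, Fabp7 and Fabp9 in none. Cpt1b, the muscle form of the enzyme that commits fatty acids to oxidation, gave 4238, 4935, 5259, 4693, 5534 and 4859, and Cpt2 gave a median of 5708, while Cpt1a of liver and Cpt1c of brain were not detected.

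Paired subunits of cytochrome oxidase, where heart and muscle use a form of their own, were read from 10 genes, of which 8 were detected. Cox6a2 of heart and muscle gave 23134, 22847, 23428, 19044, 18908 and 20520, and Cox8b gave 20546, 21602, 21841, 20935, 19154 and 21489. Cox4i1, the general form of its pair, gave a median of 21111. Cox8c was not detected. Together with Cox7a1 and Cox6b1 (above), Cox6a2, Cox8b and Cox4i1 were the 5 brightest members. The other detected members were dimmer, down to a median of 222.

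Glycolytic enzymes were detected in 10 of 11 cases. Eno3, the muscle enolase, gave 19686, 19218, 20908, 19820, 18992 and 16318, with its lowest value in mouse 6. Gapdh (15559), Pfkm (12504), Tpi1 (12070), Aldoa (11616) and Pgam2 (9356) were also bright. Ldha gave 9684, 9737, 9781, 10566, 9536 and 9264, whereas Ldhb, the lactate dehydrogenase known as the heart form, was detected in 4 arrays by its single probe, with a median of 131. Aldoc and Eno2 of brain were not detected. Slc2a4, the insulin-dependent glucose transporter, gave 1946, 2440, 2490, 2463, 2607 and 2178, Slc2a1 gave a median of 408 and Slc2a8 of 249, and Slc2a2 and Slc2a12 were not detected. Of 4 listed hexokinases 2 had a named probe, and of these Hk1 was detected at 253 and Hk3 in no array. All 3 glycogen phosphorylases were detected, Pygb at 5428, Pygm at 1292 and Pygl at 223.

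Regulators of fuel choice were present at moderate signal. Esrra, Esrrb and Esrrg, the oestrogen-related receptors that drive mitochondrial genes, had medians of 2553, 1007 and 513. Ppargc1a, their coactivator, gave 690, 817, 1654, 729, 461 and 442, and mouse 3 was well above the others. Ppard (494), Pparg (303) and Ppargc1b (673) were detected, and Ppara was not detected by its single probe. Pdk4, the kinase that closes pyruvate dehydrogenase when fat is burned, gave 1372, 1575, 4580, 1630, 2752 and 2147, again highest in mouse 3. Pdk1 (420) and Pdk2 (905) varied less, and Pdk3 was detected in 2 arrays. Ucp3, an uncoupling protein of muscle, gave 144, 306, 179, 149, 229 and 294 and Ucp1 of brown fat was not detected. Of the adenine nucleotide translocators, Slc25a5 gave 12836, 8782, 10902, 12277, 10591 and 9552, and Slc25a4 and Slc25a31 were not detected. Slc25a4 is known as the main translocator of heart, and its single probe stayed between 90.8 and 110 in all mice.

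Functional lists were read in the same way. Against 40.8% of all named genes, 23 of 24 genes of fatty acid oxidation and uptake, 20 of 22 of the citrate cycle, 25 of 28 of the sarcomere and Z-disc, and 10 of 11 of energy transfer were detected in all arrays. Lpl, Fabp3, Acadm, Etfb (20460) and Etfa (20242) led the fatty acid list, and Got2 (17202), Idh3g (13451), Suclg1 (12006), Pdha1 (11299) and Idh2 (9384) the citrate cycle list. That list also holds enzymes outside the cycle itself, among them the aminotransferase Got2 and Pdha1 of pyruvate dehydrogenase. Sdha, the catalytic subunit of succinate dehydrogenase, was not detected by its single probe, although the subunits Sdhb, Sdhc and Sdhd were.

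Cell type markers were checked against the label of the tissue. The marker counts that follow stand beside the 40.8% of all named genes that were detected in all arrays. All 20 cardiomyocyte markers and all 5 markers of ventricular identity with a named probe were detected in every mouse. Beside Myl2, the transcription factors Irx4, Irx3, Irx5 and Hey2 were read with medians of 321, 1842, 346 and 151. Endothelial markers were detected in 12 of 14 cases, led by Egfl7 (3681, 5247, 4774, 4231, 3715 and 4782), Esam (2388), Emcn (2015), Robo4 (1531) and Flt1 (1367). The defining endothelial receptor Kdr and the capillary gene Fabp4 were not detected by any of their probes. Resident fibroblast markers were detected in 11 of 13 cases, led by Dcn at 7214, 8869, 5567, 8264, 6818 and 7251, Lum at 1640, 1583, 873, 1386, 1405 and 1545, Gsn (659), Pi16 (622) and Dpt (605), and Ddr2 was not detected. Lum was lowest in mouse 3.

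Of 8 markers of activated fibroblasts 2 were detected in all arrays, Acta2 and Meox1 (264), and Acta2 is also a gene of smooth muscle. A further 2 were detected in some arrays and 4 in none. Postn, Cthrc1, Ltbp2 and Cilp, which mark scar-forming fibroblasts, stayed at background in all 6 mice. Fibrillar collagens were dim. Col1a1 gave 159, 314, 219, 147, 204 and 222, and Col3a1 gave 132, 190, 189, 169, 187 and 187. The basement membrane chain Col4a1 gave 1968, 2773, 2503, 1849, 2313 and 2532, and its partner Col4a2 gave 1518, 2482, 2771, 1507, 2272 and 2392. Col5a1 (394) and Col4a5 (359) were detected, and Col2a1, Col5a2, Col4a3 and Col4a6 were not. Markers of smooth muscle and pericytes were detected in 10 of 12 cases, with Smtn (2672), Abcc9 (1206) and Mcam (393) beside Acta2. Tagln and Cnn1, defining genes of contractile smooth muscle, were not detected.

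Macrophage markers were detected in 10 of 13 cases. Lyz2 gave 2088, 1662, 1377, 1805, 1831 and 1902, and the complement genes C1qb and C1qc had medians of 1161 and 964. Mrc1, a receptor of resident macrophages, had a median of 417, and Csf1r one of 295. Itgam and Timd4 were not detected. Lymphocyte markers were detected in all arrays in 0 of 8 cases, with 4 detected in some arrays, among them Cd3d and Cd3g in 3 each. Cd4, Cd8a, Ms4a1 and Ptprc were at background in every mouse. Ptprc is the pan-leukocyte gene, and none of its 4 probes was detected, although macrophage genes were.

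Markers of other cell types and organs were read next, and those of the atrium are described with the variation between mice. Adipocyte markers were detected in 0 of 6 cases, and Plin1, Lep, Cidec and Retn in no mouse. Conduction system markers were detected in 1 of 7 cases, Tbx3 at 193, and the pacemaker channel Hcn4 was at background. Mesothelial markers were detected in 1 of 6 cases, Upk3b at 232, 188, 127, 140, 133 and 323, where mouse 6 was highest. Of 16 markers of other organs 13 were not detected in any array and none in all. Among 12 skeletal muscle markers 3 were detected, Tnni2, Mybpc2 and Mylpf, with medians of 190, 186 and 151, and Myh1, Myh4, Tnnt3 and Casq1 were at background. Of 13 proliferation genes 2 were detected, Mcm5 at 172 and Mcm2 at 156, with Top2a, Ccnb2, Ccna2 and Aurkb at background. Of 6 Schwann cell and neuron markers Dbh (172) was detected, and of 5 thymocyte markers Cd1d1 (179).

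Sex-linked genes were checked against the label of female mice. Xist, the RNA that silences an X chromosome in females, was detected in all arrays at 261, 294, 229, 242, 199 and 240, and Eif2s3y, Kdm5d and Uty of the Y chromosome were not detected by any of 8 probes.

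**Figure D4:**
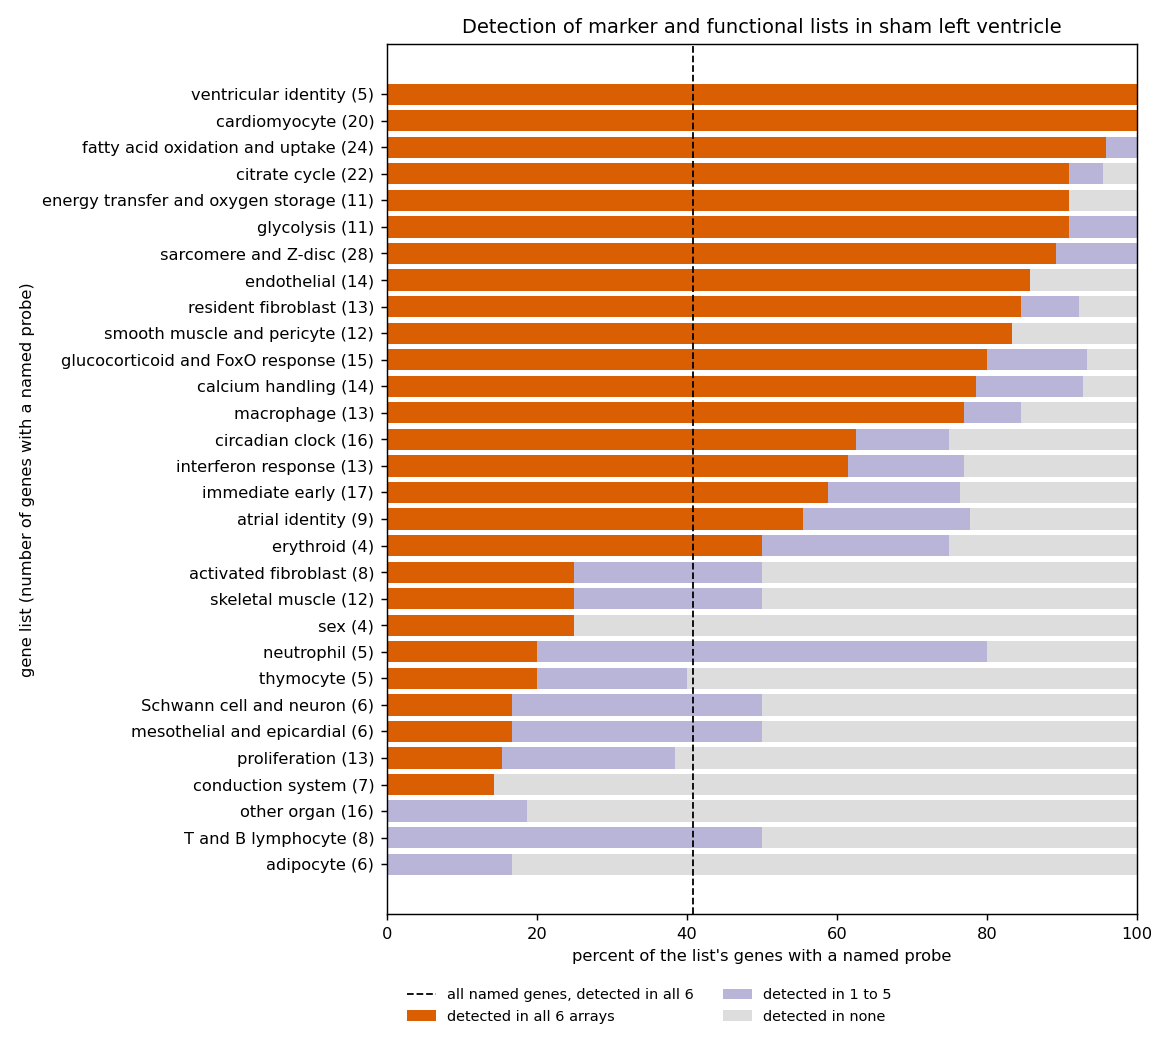
Percent of the genes of each marker or functional list that were detected in all 6 sham arrays, in 1 to 5, or in none, over the genes with a named probe (number in brackets). The dashed line marks 40.8%, the share over all named genes. The cardiomyocyte, ventricular, sarcomere and metabolic lists reach 89.3 to 100% and lists for adipocytes, lymphocytes and other organs 0%.

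The 6 mice were alike for most genes. Over the 7780 detected genes, the median SD between mice was 0.19 on the log2 scale after background correction and quantile normalization, and 0.108 in the authors' normalized values. At the 95th percentile of genes the SD was 0.40. For 566 genes (7.28%) the highest mouse was at least 2 times the lowest. Of these genes, mouse 2 was the highest in 166 and the lowest in 127, and mouse 5 was the highest in 39. Among genes with a median signal of at least 200, the steadiest were Manbal, Aspscr1 and Gps1, with SDs of 0.015, 0.018 and 0.021. Gps1, a subunit of the COP9 signalosome, gave 1354, 1369, 1412, 1362, 1351 and 1324. Eif3d, Actr1a, Rbfa, Mgst3, Ipp, Gde1 and Txndc15 completed the 10 steadiest, with SDs up to 0.037.

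Genes of the atrium showed the widest ranges. Myl4, the essential light chain of atrial myosin, gave 363, 267, 242, 244, 1980 and 9116, the largest SD (2.46) of all genes with a median signal of at least 200. Mouse 6 was far above the rest, mouse 5 was the next, and mice 1 to 4 lay together. Without mice 5 and 6 its SD was 0.45 and its median signal fell from 314.8 to 255. Myl7, the atrial regulatory chain, was detected in mice 5 and 6 only, with signals of 98, 113, 95, 110, 569 and 3803. Sln, the small inhibitor of the calcium pump in atrium, gave 102, 104, 103, 107, 514 and 4469, and Mybphl, an atrial myosin-binding protein, gave 102, 112, 102, 110, 248 and 1312. In mice 1 to 4 all 3 were at background. The raw signal of mouse 6, with background included, was 41.9 times the highest of mice 1 to 4 for Sln, 33.6 times for Myl7 and 11.7 times for Mybphl. Without mice 5 and 6, these 3 genes would be counted among those not detected.

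Other members of the atrial list followed in part. Dkk3 gave 169, 161, 169, 151, 239 and 487, and Nppa, which encodes the atrial natriuretic peptide, gave 14089, 8342, 10613, 8933, 6528 and 22760. Nppa was highest in mouse 6 but lowest in mouse 5, and without these mice its SD was 0.33 instead of 0.65. The SD of Dkk3 was 0.23 without mice 5 and 6 instead of 1.03. Bmp10 and Nr2f2, also genes of the atrium, were at background in every mouse, Gja5 lay between 177 and 258, and Pam between 138 and 185. Over all genes, 8 had a signal of at least 200 in mouse 6 that was at least 2 times the highest of mice 1 to 4, and mouse 5 was above mice 1 to 4 in all 8. They were Sln, Myl7, Myl4, Mybphl, Spon2, Dkk3, Slc41a3 and Angptl4. This selection was made after the values were seen. In mouse 6 the ventricular Myl2 was 21913 and the mesothelial Upk3b 323. Mice 5 and 6 shared chip 3, and the part of the chip or of the dissection in these values was not tested.

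Globins, the proteins of haemoglobin, were bright. The hearts had been rinsed with buffer, per the methods. Hbb-bs, an adult beta globin, gave 23666, 23970, 31960, 15016, 14164 and 20636. Hbb-bt, the other adult beta globin of this strain, gave 21338, 20296, 26695, 15075, 11783 and 17125. Hba-a1, an alpha globin, gave 20791, 19094, 26832, 12998, 11069 and 17417. Of 17 globin probes 11 were detected in all arrays, and in all 11 mouse 3 was the highest and mouse 5 the lowest in raw signal. After normalization the highest was 1.52 to 3.48 times the lowest. Alas2, the haem synthesis enzyme of red cells, gave 295, 333, 567, 208, 212 and 325 and was also highest in mouse 3. The embryonic globin genes and Hbb-b2 were at background. Beta globin genes are near-identical, so the split between Hbb-bs and Hbb-bt is uncertain. Mouse 4, which shared its chip with mouse 3, was the second lowest in Hbb-bs, Hbb-bt and Hba-a1. The rank of Hbb-bs among all genes went from 1 to 84 between mice. The neutrophil gene S100a8 gave 262, 316, 204, 157, 131 and 429, highest in mouse 6 and lowest in mouse 5.

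Clock genes differed between mice. Dbp, a transcription factor driven directly by the clock, gave 2701, 6228, 4443, 1978, 1747 and 1308. Per2, a repressor of the clock, gave 501, 988, 809, 556, 264 and 142. Ciart, whose window with 3 CACGTG is shown above, gave 188, 427, 515, 167, 144 and 120, and Tef gave 382, 920, 677, 386, 362 and 341. All 4 were highest in mice 2 and 3 and lowest in mouse 6. Per1 gave 524, 688, 690, 460, 481 and 261 and was lowest in mouse 6. Nr1d1, a repressor that the clock factors also switch on, gave 156, 208, 255, 129, 265 and 303, highest in mouse 6 and lowest in mouse 4, and Arntl, the activator it represses, gave 117, 133, 117, 162, 205 and 235, detected in 4 arrays and also highest in mouse 6. Ciart, Tef and Arntl were named after their values were seen. Of 10 clock genes detected in all arrays, 6 had a highest mouse of at least 2 times the lowest, beside 7.28% of all detected genes. The hour at which each mouse was killed is not given in the sources used here, and its part in these values was not tested. Mice 2 and 3 were both on chip 2, and so was mouse 4, in which Dbp and Per2 were lower. Mice 5 and 6, the lowest in Dbp, Per2 and Ciart, were both on chip 3. Without them the SD of Per2 was 0.48 instead of 1.51 and that of Dbp 0.79 instead of 0.89.

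Mouse 2 was the lowest in Nppb and Acta1, genes known to rise with wall stress, and in several others. It was not the lowest in Nppa (8342, against 6528 in mouse 5). The dim Myh7 was highest in mouse 2 in raw signal (197). The load on the heart of mouse 2 was not tested. Nppb, the B-type natriuretic peptide made by ventricular myocytes under load, gave 15442, 2577, 7869, 16843, 9117 and 7284, so that mouse 2 was below the other 5, whose lowest value was 7284. Its SD fell from 0.97 to 0.55 without mouse 2, and that of Acta1 (above) from 0.58 to 0.45. Nmrk2, a muscle kinase of the NAD pathway, gave 517, 173, 477, 1604, 437 and 208, with mouse 6 nearly as low as mouse 2. Tfrc, the receptor for iron uptake, gave 2313, 536, 2096, 2438, 2004 and 1315. Kcne1, a potassium channel subunit, gave 415, 170, 606, 313, 483 and 500. Cdkn1a, a cell cycle inhibitor, gave 422, 223, 544, 554, 719 and 439. Mouse 2 was the lowest in Nmrk2, Tfrc, Kcne1 and Cdkn1a. Without it the SD was 1.30 for Nmrk2, 0.36 for Tfrc, 0.43 for Kcne1 and 0.36 for Cdkn1a, instead of 1.54, 0.95, 1.05 and 0.84. These genes, Nppb and Irx2 had been picked for a large SD and were grouped because mouse 2 was the lowest. A fall of their SD without mouse 2 was therefore largely fixed by the choice. Tfrc had 2 probes, and the other gave 595 in mouse 2 and at least 1278 in the rest. Irx2 (249, 213, 482, 462, 479 and 228) was also lowest in mouse 2, with mice 6 and 1 close to it. Without mouse 2 the SD of Irx2 was 0.75 instead of 0.85. Named vessel markers had no common highest mouse after normalization. Flt1, Egfl7, Rgs5, Smtn and Abcc9 were highest in mouse 2, Esam and Robo4 in mouse 3, Emcn in mouse 1, Acta2 in mouse 4 and Mcam in mouse 6. Over all detected endothelial markers, the mean log2 value was highest in mouse 2 (9.98), followed by mouse 6 (9.86). That of smooth muscle and pericyte markers was also highest in mouse 2 (8.60), followed by mouse 3 (8.54). Flt1 gave 1417, 2274, 1894, 1317, 1234 and 1146, and its SD was 0.27 without mouse 2 instead of 0.39. Rgs5, of pericytes, gave 287, 458, 289, 313, 292 and 279, and its SD was 0.11 without mouse 2 instead of 0.30. Leaving out mouse 2 kept 8 of the 15 genes with the largest SD, whereas leaving out any other mouse kept 13 to 15.

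Genes with a large SD outside these groups were Spon2 (347, 206, 162, 322, 752 and 1027), Slc41a3 (778, 285, 704, 591, 1202 and 1619), Erdr1 (1081, 1059, 986, 377, 1899 and 1369) and Nrn1 (1212, 530, 298, 476, 378 and 550). Spon2 and Slc41a3 were highest in mouse 6 and Nrn1 in mouse 1. Without mice 5 and 6 the SD was 0.93 instead of 1.45 for Spon2 and 0.92 instead of 1.09 for Slc41a3. Immediate early genes, which respond within minutes to handling and stress, were detected in 10 of 17 cases (58.8%, against 40.8% of all named genes). Egr1 gave 979, 980, 597, 765, 749 and 1819, with mouse 6 above the rest, and Ier3 gave 1801, 2686, 2522, 1768, 1672 and 1080, with mouse 6 lowest. Dusp1 (2927), Zfp36 (791) and Junb (280) were detected, and Ier2, Nr4a1, Btg2 and Myc were not. Interferon response genes were detected in 8 of 13 cases (61.5%, against the same 40.8%) at low signal. Ifit3 gave 592, 834, 362, 412, 433 and 461, and mouse 2 was the highest in this gene and in Usp18, Ifit2, Oasl2 and Rsad2. Mt1, a metallothionein, was bright in all mice at 16856, 17640, 24729, 16925, 14572 and 14168, highest in mouse 3.

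**Figure D5:**
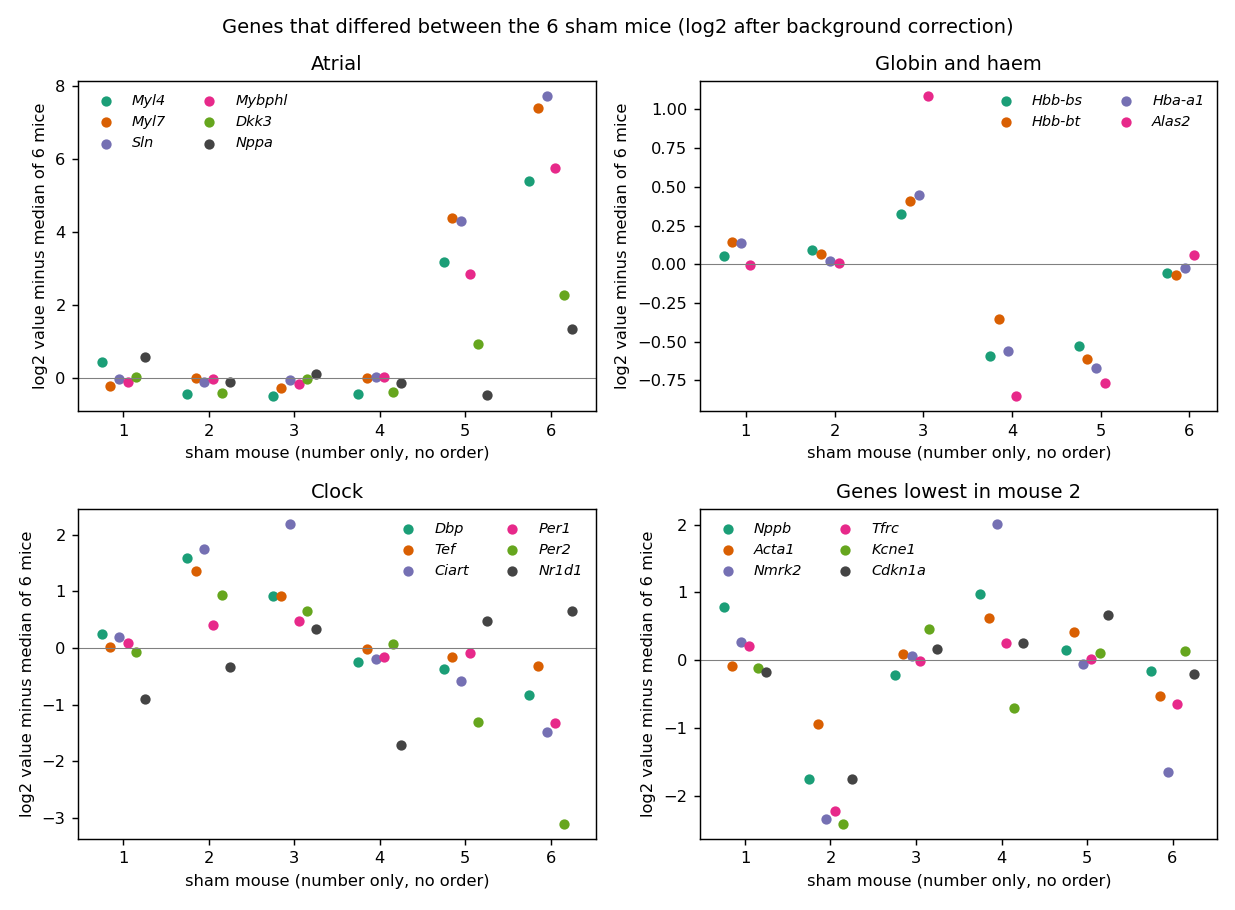
Log2 values after background correction and quantile normalization, minus the median of the 6 mice, for 4 groups of genes, with 1 point per gene and mouse (points are shifted sideways so that they can be told apart). Atrial genes stand out in mouse 6 and less in mouse 5, globin genes are highest in mouse 3, Dbp, Tef, Ciart and Per2 are high in mice 2 and 3, and the 6 genes of the last panel are lowest in mouse 2, with Nmrk2 also low in mouse 6. The scales of the panels differ.

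Which probe stood for a gene decided many calls. Of 4789 detected genes with several probes, 1301 had every probe detected in all arrays, and 2860 had another probe that was detected in no array. On the lists, 71 of 225 genes with several probes showed this disagreement. Atp2a2 had 3 detected probes, with medians of 21711, 18071 and 1879, and a further probe at background (101). Myom2, of the M-band, read 6297 with 1 probe and 103 with the other. Sdhc (8471), Ogdh (6705) and Slc25a20 (6190) behaved likewise, each with a probe between 102 and 105. Acta2 had 4 detected and 2 undetected probes, Egfl7 2 and 1, and Ryr2 2 detected, 2 detected in 1 array each and 1 in none. A gene whose probes were all at background, such as Slc25a4, Kdr, Tagln or Sdha, is therefore listed as not detected by these probes and not as absent from the tissue.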

How the data were processed

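RNA from the left ventricular free wall of 6 sham-operated mice was read on Illumina MouseWG-6 v.2 arrays. The authors deposited non-normalized signal intensities with a detection p-value for 45281 probes, and a second table of log2-like values made with lumi (variance-stabilizing transformation, then robust spline normalization) in R 3.0.1. RNA was purified on RNeasy columns and labelled as biotinylated cRNA per the labels. Arrays hold no counts, and precision is limited by the number of mice.

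Probes with 1 gene symbol (34885, for 19057 genes) were used, 18 with several symbols were left out and 10378 had no name here. Of the named probes, 34807 were found in the RefSeq gene table. A gene was ranked by the median signal of its brightest probe and called detected when 1 of its probes had a detection p under 0.01 in all 6 arrays. The detection p moved in steps of 0.00107. The spread between mice was computed on log2 values after normexp background correction from the detection p-values (offset 16) and quantile normalization of the 6 arrays (limma 3.58.1, R 4.3.3), with tables made in Python 3.11.15 (pandas 2.3.3). These steps were tested on simulated data.

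The members and gene lists were chosen with earlier results of these data known. Genes were named by rule: the 30 brightest, every member of families of up to 8, of other lists up to 5 brightest detected and 4 undetected members, the 15 most and 10 least variable genes with a signal of at least 200, and 10 list genes whose probes disagreed. Myh7, Myl7, Hbb-bt, CYTB, ND5, ND6, Scn10a, Col3a1, Sdhb, Sdhd, Cd3d, Cd3g, Tef, Ciart, Arntl and Angptl4 were named after their values were seen. No groups were compared, and the single test was Dixon's outlier test on the values of named genes and of the arrays.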

Additional observations from a re-analysis of the deposited data

Results flagged for a closer look

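Of 222 values tested for a mouse far from the other 5, 12 were set aside (5.41%), and chance alone sets aside about 1 in 20. The share is near that of chance, so the genes are listed as a description only. Tfrc and Cdkn1a had also been picked for their large SD between the same mice, so their flags are not independent of that choice. The figure given for each gene is the gap between that mouse and its nearest neighbour as a share of the whole range of the 6 mice on the log2 scale. Mouse 3 stood apart in 4 genes. It was high in the ventricular factor Hey2 (0.668) and low in the fibroblast proteoglycan Lum (0.719), the endothelial sialomucin Emcn (0.661) and the complement gene C1qc (0.689). Mouse 2 stood apart in 4 genes, with high values of the pericyte gene Rgs5 (0.649) and the nuclear receptor Esrrb (0.683) and low values of Tfrc (0.639) and Cdkn1a (0.641). Mouse 6 was low in the enolase Eno3 (0.653), the calcium-binding S100a1 (0.850) and the clock gene Per1 (0.646). Mouse 1 was high in the replication factor Mcm5 (0.664). For S100a1 the distance itself was small, since mouse 6 lay at 13.73 and the other 5 between 13.82 and 13.83 on the log2 scale. The part of chip or dissection in these values was not tested.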

How the results depend on the processing

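Requiring every probe of a gene to be detected lowered the count of detected genes to 4292 and that of list members from 278 to 179. All other alternatives kept these counts within 1.5 times, from 6816 to 8388 genes detected, 7001 to 10686 genes not detected and 256 to 290 list members. Leaving out each mouse in turn gave 7809 to 7884 detected and 9362 to 9454 undetected genes, and 278 to 283 members. Of the 50 brightest genes, 34 and 35 were shared when the mean or the median over probes stood for a gene, and 48 to 50 in every other alternative, mice left out included. The median SD was 0.130 without background correction, 0.135 after scaling to the 75th percentile, 0.108 in the authors' values, 0.185 with the chip mean removed and 0.175 to 0.195 with 1 mouse left out. Leaving out mice 5 and 6, chosen after seeing the data, gave 0.196. Of the 15 genes with the largest SD, 8 were shared without mouse 2 and 10 to 15 otherwise. The size of some large SDs depended on the processing. Without background correction the SD was 1.03 for Per2, 2.26 for Sln, 2.20 for Myl7 and 2.18 for Myl4. In the authors' values it was 0.85, 1.95, 1.87 and 2.07, instead of 1.51, 3.31, 3.25 and 2.46. The SDs of Nppb, Nppa, Dbp, Acta1 and Hbb-bs changed less in these 2 alternatives. No paired analysis was possible because a single group was described and no groups were compared.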

Other observations

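Beyond the lists, 1574 probes without a gene name here were detected in all 6 arrays, and unnamed probes made up 23 of the 100 brightest. Genes of liver and choroid plexus were read in some mice. Ttr, which encodes transthyretin, gave 265, 135, 137, 192, 120 and 122 in mice 1 to 6 and was detected in 4 arrays, with mouse 1 and then mouse 4 the highest. Apoa1, an apolipoprotein of liver and gut, gave 176, 113, 119, 140, 110 and 115 and was detected in 2 arrays, again with mice 1 and 4 the highest. Both were chosen after their values were seen, and Alb was at background in every mouse.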
